A study of Solanum lycopersicum with 27 samples.

Results

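Small heat shock proteins are chaperones built around an α-crystallin domain. They assemble into oligomers that bind unfolding proteins without using ATP and hold them until other chaperones, such as HSP70 and HSP101, refold them. Plant cells keep separate classes in the cytosol, the plastids, the mitochondria and the peroxisomes, and the genes are best known for their activation by heat under heat stress transcription factors (HSFs). In tomato fruit, a warm pretreatment that raises small heat shock proteins is known to go with tolerance of later chilling. Here their transcripts were followed in seedlings moved into the cold.

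The genes were chosen by a list of 9 locus identifiers: ACD32.1 (Solyc07g055720), an α-crystallin domain gene named after an Arabidopsis gene whose protein sits in peroxisomes, and genes listed as cytosolic class I, cytosolic class II, plastid HSP21 and mitochondrial small heat shock protein genes. Of the 9, 5 were among the 20545 features of the shoot table and 4 of those 5 were also among the 20680 features of the root table. The cytosolic class I genes were Solyc06g076560 and Solyc06g076570, the cytosolic class II gene was Solyc08g062340, and the plastid HSP21 gene was Solyc03g082420, which was analysed in shoots only. The remaining 4 (Solyc06g076520, Solyc06g076540, Solyc08g062450 and Solyc08g078700) were not analysed here. The class names come from the list itself and were not checked against protein sequences, which were not used here.

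The libraries came from shoots and roots of 18-day-old seedlings of the tomato cultivar M82, grown in hydroponics with warm days. At T0, in the morning of the light period, seedlings were moved to fresh hydroponic containers, either in a cold room at 4°C or at 24°C, both in the light. T0 libraries were taken just before the cold exposure, so later differences from T0 also span this move. Shoots gave 3 libraries at 4°C and 3 at 24°C after 30 min, 3 at 4°C and 3 at 24°C after 3 h, and 6 at T0. Roots gave 3 libraries at 4°C, 3 at 24°C after 3 h and 3 at T0. The T0 shoot libraries 1 to 3 were sequenced in the batch of the 3 h shoots (batch 1) and 4 to 6 in that of the 30 min shoots (batch 2), so times in shoots cannot be told apart from sequencing batches, whereas 4°C and 24°C shoots of a time were sequenced in the same batch. The batch of the root libraries is not given in the sources used here, so it could not be checked for roots. All seedlings, T0 included, had grown under the same warm days, and the 24°C group aged by the same minutes or hours as the 4°C group.

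All values below are the authors' normalised counts, with column totals that were almost equal within an organ, from 20328938 to 20332140 in shoots and from 37775630 to 37777083 in roots. They therefore carry no sequencing depth. Rubisco small subunit genes held 2.07% to 2.88% of the total in shoot libraries and 0.00184% to 0.0116% in root libraries, so they were high in shoots and near 0 in roots, as the organs are labelled. Plastid-encoded genes held 6.72% to 6.76% of the total in shoots at 4°C and 0.25% to 0.322% at 24°C after 3 h, and rescaling on nuclear genes moved the median difference of all features between these groups from -0.28 to -0.02 on the log2 scale. That rescaling also changed the split of called features in shoots at 3 h, with 3170 higher and 2707 lower at 4°C in place of 1977 higher and 6139 lower. Whole shoots and roots were sampled, so fewer cells of a type and less RNA per cell cannot be told apart.

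The family did not move as a block. In shoots at 3 h, ACD32.1 was 6.04 log2 units lower at 4°C than at 24°C, the class I gene Solyc06g076570 was 0.66 log2 units higher, and the other 3 genes did not pass the test. In roots at 3 h, Solyc06g076570 was again higher at 4°C, by 1.06 log2 units, and the other 3 genes did not pass. A gene was called when limma, fitted to log2 of the value plus 1 over all features of an organ, gave a Benjamini-Hochberg adjusted p under 0.01. By that rule 1 of 5 genes was lower and 1 higher in shoots at 3 h, where 29.9% of all features were called lower and 9.63% higher, and 1 of 4 was higher in roots, where 18.0% were. In either direction 39.5% of features were called in shoots and 46.0% in roots, beside 2 of 5 and 1 of 4 in the family, so the counts alone say nothing particular of it. The median difference of the 5 genes in shoots was -0.29 log2 units, beside -0.28 over all 20535 features tested, and that of the 4 genes in roots was -0.09, beside -0.11.

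**Figure D1:**
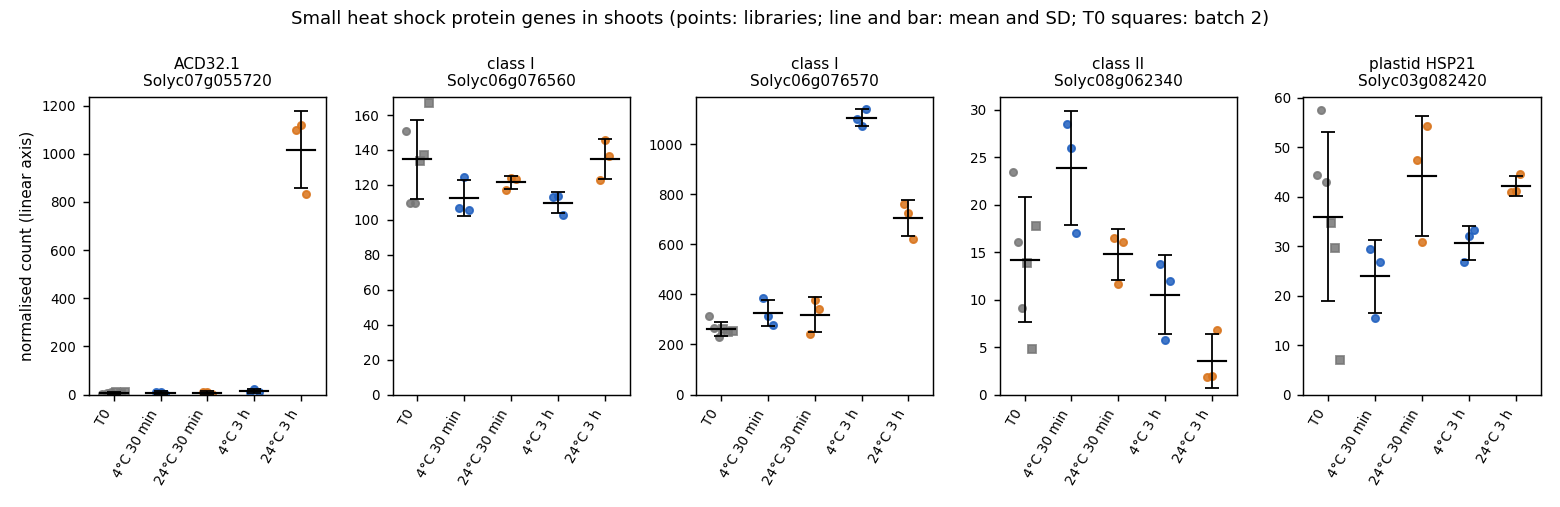
Normalised counts (linear axes from 0) of the 5 genes in the 18 shoot libraries, by group. Points are libraries, with squares for T0 libraries of batch 2, and lines with bars are the group mean and SD. ACD32.1 stands at 832 to 1119 in the 3 libraries at 24°C after 3 h and below 24 in all others, while Solyc06g076570 stands highest at 4°C after 3 h.

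ACD32.1 (Solyc07g055720) was nearly silent in shoots in every group except the seedlings that spent 3 h at 24°C. At 3 h it had normalised counts of 10.6, 23.9 and 11.4 at 4°C, against 1097, 1119 and 832 at 24°C. The 6 T0 libraries ranged from 1.19 to 11.9, with a median of 7.68. The means at 3 h were 15.3 ± 7.45 at 4°C and 1016 ± 160 at 24°C (SD, n = 3 each), and the groups were far from overlapping. The difference of -6.04 log2 units (SE 0.73, 95% interval -7.57 to -4.51, limma adjusted p = 2.02e-06) was the lowest of all 20535 features. It remained called under all 28 alternatives run, with values from -6.39 to -5.37, and was -5.79 after rescaling on nuclear genes.

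Compared with T0, the change in ACD32.1 lay at 24°C. Its mean at 24°C after 3 h was 143 times that of the 6 T0 libraries, and 165 times that of the T0 libraries of the same batch. This rise of 7.20 log2 units (SE 0.63, limma adjusted p = 3.18e-08) was the highest of all features. At 4°C the same ratio was 2.16, with a difference of 1.15 log2 units (95% interval -0.17 to 2.48, limma adjusted p = 0.166) that did not pass. The ratio fell to 1.55 without the second 4°C library, whose value of 23.9 was the highest of the 3. By the study's own fold rule, which asks for a 2-fold change from T0 at 3 h, ACD32.1 would count as induced by cold with that library and not without it, although the gene was lower at 4°C than at 24°C in every library.

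At 30 min no such difference was seen. ACD32.1 had 12.5, 10.4 and 0.658 normalised counts at 4°C, against 9.70, 12.5 and 3.08 at 24°C. The groups overlapped with each other and with T0, and the difference was -0.40 log2 units (95% interval -1.93 to 1.13, limma adjusted p = 0.795). The difference at 3 h minus that at 30 min was -5.64 log2 units (SE 1.03, limma adjusted p = 0.000753). ACD32.1 was the 1 gene of the 5 for which this change was called, and it was called downward for 7.73% of all features. At these levels the values sit near the floor of the table, and the 30 min difference turned to 0.57 without the third 4°C library.

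The cytosolic and plastid genes were spread over a narrower range. Solyc06g076570, a class I gene, rose at both temperatures in shoots by 3 h, and more at 4°C. Class I proteins are the most abundant small heat shock proteins of the plant cytosol under heat. Its normalised counts at 3 h were 1102, 1074 and 1142 at 4°C, against 763, 724 and 623 at 24°C. The 6 T0 libraries lay from 230.2 to 314, with a median of 258. Every 3 h library was thus above every T0 library, and all 3 at 4°C were above all 3 at 24°C.

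The group means of Solyc06g076570 at 3 h were 1106 ± 34.0 at 4°C and 703 ± 72.1 at 24°C (SD, n = 3 each). The gene was 0.66 log2 units higher at 4°C (SE 0.15, 95% interval 0.34 to 0.97, limma adjusted p = 0.00137). Without the third 24°C library, the lowest of its group, the difference was 0.57 with an adjusted p of 0.0105, just past the threshold. Rescaling on nuclear genes gave 0.92, with an adjusted p of 0.000101. Against T0 the gene was 2.07 log2 units higher at 4°C (limma adjusted p = 8.64e-10) and 1.42 higher at 24°C (adjusted p = 6.25e-08), or 4.20 and 2.67 times the T0 mean. Both calls held under all 29 alternatives.

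At 30 min Solyc06g076570 had 384, 315 and 279.6 normalised counts at 4°C, against 241, 377 and 341 at 24°C. The groups overlapped, and the difference was 0.04 log2 units (95% interval -0.28 to 0.36, limma adjusted p = 0.905). The change of the difference between the times, 0.62 log2 units, did not pass (adjusted p = 0.0444).

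Its listed class I partner Solyc06g076560, whose locus number directly precedes it, hardly moved. Reads that match both genes could have been assigned to either, since the aligner ran with its default settings and the options of the counting step are not given in the sources used here. Solyc06g076560 had 113, 114 and 103 normalised counts in shoots at 4°C after 3 h, against 123, 146 and 137 at 24°C. The groups did not overlap, but the difference of -0.29 log2 units (95% interval -0.61 to 0.03) did not pass (limma adjusted p = 0.112) and shrank to -0.03 after rescaling on nuclear genes. At 30 min it had 107, 125 and 106 at 4°C, against 117, 124 and 123 at 24°C, and the difference was -0.12 log2 units (95% interval -0.44 to 0.20, adjusted p = 0.704). Over the 18 shoot libraries its values ran only from 103 to 167, the highest being a T0 library.

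The class II gene Solyc08g062340 was low in all shoot libraries and lowest after 3 h at 24°C. Class II proteins form cytosolic oligomers of their own, apart from class I. Its normalised counts at 3 h were 13.8, 5.79 and 11.99 at 4°C, against 1.84, 1.95 and 6.84 at 24°C. The groups overlapped through 1 library each, and the difference of 1.44 log2 units (SE 0.52, 95% interval 0.34 to 2.53) did not pass (limma adjusted p = 0.0274). Without the third 24°C library it was 1.92 with an adjusted p of 0.00816. Against T0, where the 6 libraries ran from 4.79 to 23.4 with a median of 15.0, the gene fell by 1.77 log2 units at 24°C (SE 0.45, adjusted p = 0.00304). Its mean was then 0.25 times that of T0. The call was lost without the first 24°C library (adjusted p = 0.0234), without the second (0.0223) and in a fit of T0 and 24°C libraries alone (0.0155). At 4°C the difference from T0 was -0.34 log2 units (95% interval -1.29 to 0.62, adjusted p = 0.602).

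At 30 min Solyc08g062340 stood at 28.5, 26.0 and 17.0 normalised counts at 4°C, against 16.5, 11.7 and 16.1 at 24°C. All 3 libraries at 4°C were above those at 24°C, the third only narrowly, and the difference of 0.64 log2 units (95% interval -0.46 to 1.74) did not pass (limma adjusted p = 0.5004). In shoots at 24°C after 3 h, 2 of 3 libraries of this gene lay below the T0 range, whereas all 3 of ACD32.1 lay above theirs. Over the 18 shoot libraries the log2 values of both genes had a Pearson correlation of -0.74, and of -0.19 over the 15 libraries left without the 3 at 24°C after 3 h.

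The plastid gene Solyc03g082420 (HSP21), known in other plants for protecting the photosynthetic membranes under heat, was lower in all 4°C libraries than in all 24°C libraries at both times. At 30 min it had 29.5, 15.5 and 26.8 normalised counts at 4°C, against 47.5, 30.8 and 54.4 at 24°C. At 3 h it had 26.8, 32.0 and 33.3 at 4°C, against 40.9, 41.2 and 44.5 at 24°C. The groups did not overlap at either time, but the differences of -0.87 log2 units at 30 min (95% interval -1.76 to 0.02, limma adjusted p = 0.213) and -0.45 at 3 h (95% interval -1.34 to 0.44, adjusted p = 0.385) did not pass. The 3 h difference shrank to -0.195 after rescaling on nuclear genes (limma adjusted p = 0.748).

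Groups that do not overlap were common in these tables. At 30 min 24.8% of all shoot features had them, at 3 h 66.4%, and in roots 69.2%. Among the small heat shock protein genes it was 2 of 5, 4 of 5 and 2 of 4. The T0 libraries of HSP21 also differed by batch, with 34.7, 29.6 and 6.90 in batch 2 and 44.3, 57.6 and 42.9 in batch 1. The batch difference of -1.25 log2 units did not pass (limma adjusted p = 0.0269), while 23.5% of all features did. Set against T0 of its own batch, the direction of the HSP21 difference turned at 24°C after 3 h (-0.18 in place of 0.45) and at 4°C after 30 min (0.23 in place of -0.39), so no direction from T0 is given for this gene.

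**Figure D2:**
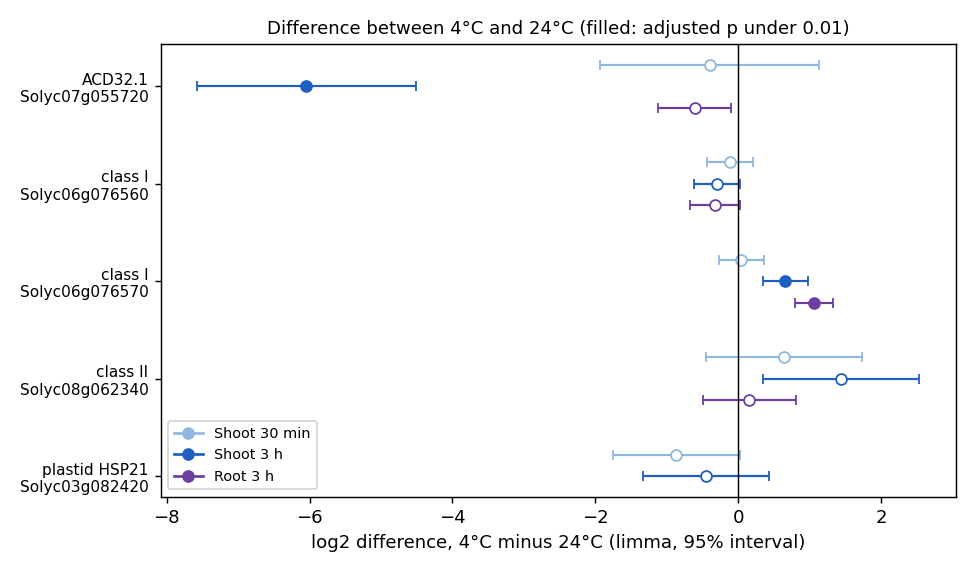
Difference between 4°C and 24°C in log2 units (limma, points) with its 95% interval (bars) for each gene, in shoots at 30 min, shoots at 3 h and roots at 3 h. Filled points have an adjusted p under 0.01. ACD32.1 in shoots at 3 h lies at -6.04, and the other 13 values lie between -0.87 and 1.44.

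In the comparisons with T0, the counts of calls were small. At 30 min limma called 0 of the 5 genes at 4°C against T0 and 0 at 24°C against T0, where 11.5% and 16.1% of all features were called, and likewise 0 between 4°C and 24°C, where 6.07% were. At an unadjusted p under 0.05 the numbers were 1, 0 and 0, the single gene being Solyc06g076570 at 4°C (0.30 log2 units above T0, adjusted p = 0.110). At 3 h, 1 gene was higher at 4°C than at T0, where 6.94% of features were. At 24°C, 2 genes were higher and 1 was lower than at T0, where 26.3% and 13.9% were. These comparisons share the T0 libraries.

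In roots the clearest change was that of Solyc06g076570. It had 759.7, 828 and 954 normalised counts at 4°C after 3 h, against 442, 399.8 and 372 at 24°C, and 484, 477 and 591 at T0. All 3 libraries at 4°C stood above all others, and those at 24°C below all T0 libraries. The means were 847 ± 98.8 at 4°C and 405 ± 35.3 at 24°C (SD, n = 3 each), a difference of 1.06 log2 units (SE 0.12, 95% interval 0.79 to 1.33, limma adjusted p = 5.88e-05) that was called under all 18 alternatives. Against T0 the gene rose by 0.71 log2 units at 4°C (SE 0.12, adjusted p = 0.00517, 1.64 times the T0 mean), and 1.73% of all features were called higher. That call was lost in 8 of the 18 alternatives, among them the fits without any 1 of the 4°C libraries, without the first or second T0 library or without the second 24°C library (adjusted p up to 0.0251). At 24°C the difference from T0 was -0.35 log2 units (adjusted p = 0.0311), which did not pass.

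ACD32.1 in roots lacked the large difference seen in shoots. It had 27.1, 28.8 and 20.5 normalised counts at 4°C after 3 h, against 47.2, 36.5 and 34.6 at 24°C, and 29.8, 22.2 and 26.7 at T0. All 4°C libraries were below all 24°C libraries and spread over about the T0 range. The means were 25.4 ± 4.35 at 4°C and 39.4 ± 6.78 at 24°C (SD, n = 3 each). The difference of -0.61 log2 units (SE 0.23, 95% interval -1.13 to -0.10) did not pass (limma adjusted p = 0.0428), nor did that of 24°C from T0, 0.57 log2 units (95% interval 0.05 to 1.08, adjusted p = 0.0607). The tables were normalised separately, so the organs were not tested against each other.

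The other cytosolic genes in roots passed no test. Solyc06g076560 had 149, 135 and 111 normalised counts at 4°C, against 179, 138 and 179 at 24°C, and 127 to 151 at T0. Its difference was -0.33 log2 units (95% interval -0.68 to 0.03, limma adjusted p = 0.0988). Solyc08g062340 had 20.6, 42.9 and 45.3 at 4°C, against 29.7, 29.6 and 33.0 at 24°C, and 33.8 to 40.5 at T0. Its difference was 0.15 log2 units (95% interval -0.50 to 0.80, adjusted p = 0.671), and the 4°C libraries enclosed those at 24°C. At 24°C limma called 0 of the 4 genes against T0 (2 at an unadjusted p under 0.05, ACD32.1 and Solyc06g076570), where 40.1% of all features were called.

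**Figure D3:**
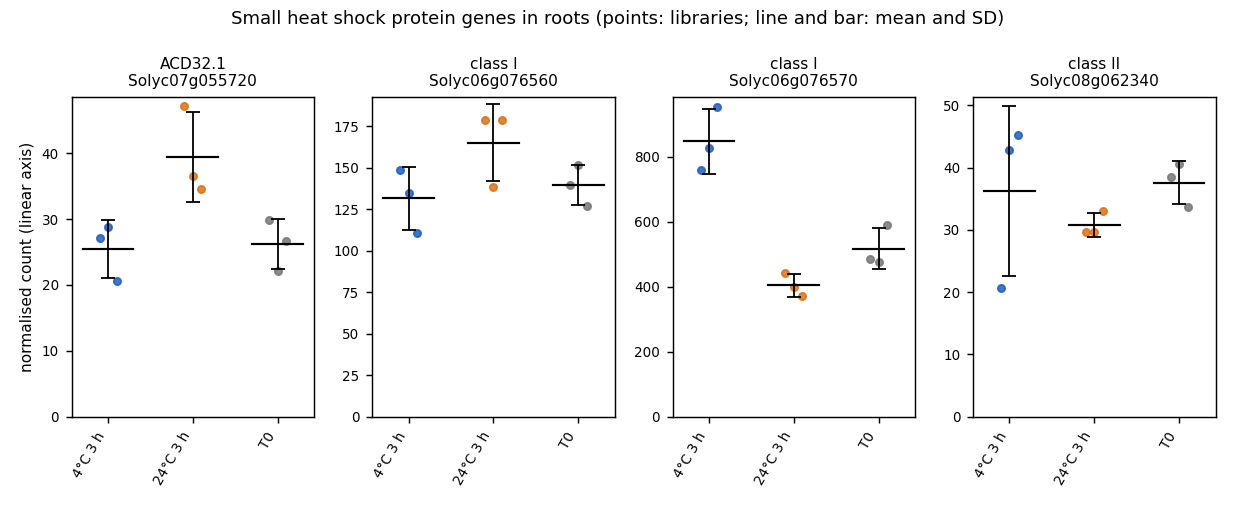
Normalised counts (linear axes from 0) of the 4 genes of the root table in the 9 root libraries, by group. Points are libraries, and lines with bars are the group mean and SD. Solyc06g076570 stands at 759.7 to 954 at 4°C, above the 24°C and T0 libraries, and ACD32.1 stays below 48 in all groups.

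Heat stress transcription factors bind the promoters of these genes, and HSFA2 (Solyc08g062960) is known as the member that builds up under prolonged heat and keeps small heat shock protein genes active. In shoots at 3 h it had 34.6, 25.1 and 34.8 normalised counts at 4°C, against 937, 877 and 883 at 24°C, and 10.1 to 57.4 over the 6 T0 libraries. Like ACD32.1 it was high only after 3 h at 24°C. The differences at 3 h were -4.81 log2 units between 4°C and 24°C (SE 0.37, limma adjusted p = 6.02e-09) and 4.87 between 24°C and T0 (adjusted p = 6.76e-10). It was not alone in this rise. Of 20 tested HSF genes in shoots, 8 were called higher and 5 lower at 24°C after 3 h than at T0. Of all features, 26.3% and 13.9% were. Over the 18 shoot libraries the log2 values of HSFA2 and ACD32.1 had a Pearson correlation of 0.83, which was -0.33 over the 15 libraries without the 3 at 24°C after 3 h. The correlation thus rested on that 1 group. In the other 15 libraries ACD32.1 stayed near the floor of the table, so the r of -0.33 cannot show whether the genes vary together there. The T0 level of HSFA2 differed by batch (10.1, 23.5 and 21.7 in batch 2, and 57.4, 47.7 and 47.9 in batch 1, adjusted p = 0.00418), and all of these values lay far below those at 24°C after 3 h.

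**Figure D4:**
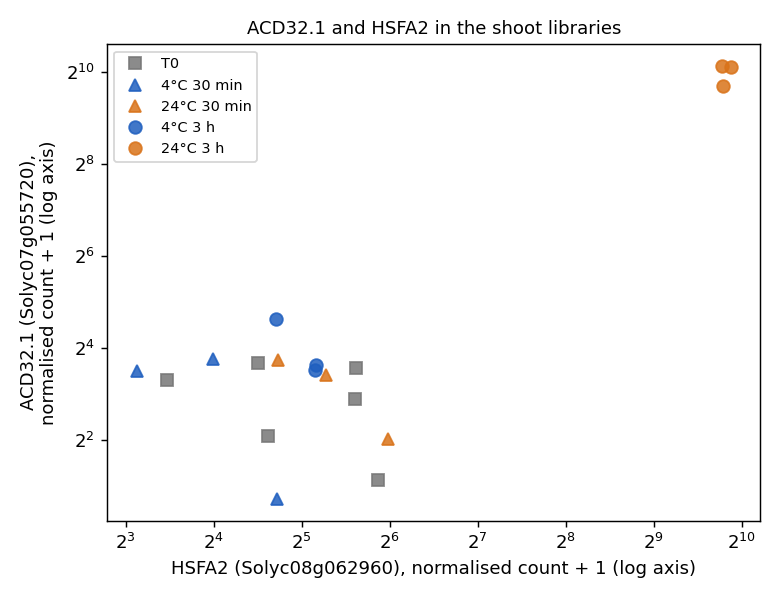
ACD32.1 against HSFA2 in the 18 shoot libraries, normalised count plus 1 on log axes, by group. The 3 libraries at 24°C after 3 h stand apart at the upper right. The other 15, where ACD32.1 lies near the floor of the table, have a Pearson r of -0.33.

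At 30 min HSFA2 had 14.9, 7.74 and 25.3 normalised counts in shoots at 4°C, against 37.8, 25.6 and 62.4 at 24°C (-1.39 log2 units, limma adjusted p = 0.0191). This difference did not pass, although the groups did not overlap, and it was called (adjusted p = 0.00369) only without the third 4°C library. The 3 h difference of HSFA2 minus that at 30 min was -3.42 log2 units (adjusted p = 0.000146). In roots it had 129, 144 and 148 at 4°C, against 388, 323 and 391 at 24°C, and 92.3 to 129 at T0. It was lower at 4°C than at 24°C in roots too (-1.38 log2 units, SE 0.15, adjusted p = 4.30e-05) and higher at 24°C than at T0 (1.77 log2 units, adjusted p = 1.22e-05), where ACD32.1 did not pass.

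HSFA4C (Solyc07g055710), whose locus number directly precedes that of ACD32.1, went another way. It was singled out after its values were seen. In shoots at 30 min it had 65.6, 52.7 and 63.7 normalised counts at 4°C, against 9.70, 23.8 and 7.27 at 24°C (2.24 log2 units higher at 4°C, SE 0.37, limma adjusted p = 0.000391). At T0 it ran from 19.7 to 28.7 in batch 2, the batch of these libraries, and from 47.0 to 58.4 in batch 1. The 4°C libraries stood above T0 of batch 2, and those at 24°C lay below or within it. Against T0 of both batches, HSFA4C was called lower at 24°C (-1.49 log2 units, limma adjusted p = 0.00192). At 4°C HSFA4C did not pass against T0 (0.75 log2 units, limma adjusted p = 0.107). T0 of batch 2 was 1.01 log2 units below that of batch 1, which did not pass (limma adjusted p = 0.0387). Averaging both batches thus lowered both differences from T0 at 30 min. The call at 24°C and its absence at 4°C therefore cannot place the change at 1 temperature. At 3 h it had 47.5, 88.2 and 77.5 at 4°C, against 38.1, 27.7 and 63.6 at 24°C, which overlapped, and the difference did not pass (0.74 log2 units, adjusted p = 0.0972). In roots it had 305, 263 and 315 at 4°C, against 124, 139 and 144 at 24°C, and 574 to 644 at T0. Against T0 the gene fell by 1.04 log2 units at 4°C (adjusted p = 0.000394) and by 2.16 at 24°C (adjusted p = 4.88e-07) in roots, and it was 1.11 log2 units higher at 4°C than at 24°C (SE 0.11, adjusted p = 2.23e-05).

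HSP22.0 (Solyc11g020330), a further small heat shock protein gene named in the study's tables and likewise singled out after its values were seen, was listed at 0 in all 3 shoot libraries at 24°C after 3 h. At 4°C it had 11.6, 10.6 and 0.687 normalised counts there, and 5.10 to 14.8 over the 6 T0 libraries. The gene was called higher at 4°C (limma adjusted p = 0.00231), but the call was lost without the first 4°C library (adjusted p = 0.0216), without the second (0.0196) and in 2 further alternatives of 27. In roots it had 26.3, 25.5 and 21.4 at 4°C, against 11.7, 10.7 and 1.60 at 24°C, and 32.8 to 43.0 at T0. All root libraries at 24°C were below those at 4°C, and those below T0. The root difference between 4°C and 24°C did not pass (1.80 log2 units, adjusted p = 0.0158), whereas the fall at 24°C against T0 did (-2.44 log2 units, adjusted p = 0.00382).

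The names of these HSFs follow their Arabidopsis matches in the study's tables, where Solyc07g040680 carries the name HSFA2 as well. That gene did not follow Solyc08g062960. Its difference between 4°C and 24°C was 0.01 log2 units in shoots at 3 h (limma adjusted p = 0.976) and 1.86 in roots (adjusted p = 0.000123), where Solyc08g062960 was lower at 4°C.

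Over the wider heat stress network, counts were taken from lists. Of 20 tested HSF genes in shoots, 1 was higher (HSFA4C) and 0 lower at 4°C than at 24°C at 30 min, where 6.07% of all features were called in either direction. At 3 h, 3 were higher and 6 lower, where 9.63% and 29.9% of all features were. The 3 were Solyc03g006000 (HSFA4A, 0.99 log2 units), Solyc09g059520 (HSFA8, 0.81) and Solyc12g007070 (0.65, a call lost in 2 of 28 alternatives), named after their values were seen. Of 21 tested in roots, 8 were higher and 7 lower, where 18.0% and 28.0% of all features were. The HSF list joined genes named in the study's tables with further members of the tomato family that the study does not name. Most of the named ones were listed by the study because they changed in these samples, so the counts are not independent evidence. Of 10 further candidate small heat shock protein genes tested in shoots, 1 was higher (HSP22.0) and 1 lower at 3 h, and of 8 tested in roots, 1 was higher and 1 lower, beside those same shares of all features (9.63% and 29.9% in shoots, 18.0% and 28.0% in roots). Of 8 tested candidates for partner chaperones in shoots, 1 was higher and 1 lower at 4°C than at 24°C at 3 h, beside 9.63% and 29.9% of all features. At each temperature 6 were lower than at T0, where 17.5% of all features were lower at 4°C and 13.9% at 24°C. In roots, 5 of 7 were higher at 4°C than at 24°C and 0 lower, where 18.0% of all features were higher, and 5 were lower at 24°C than at T0, where 16.2% were. The median difference of the 7 in roots was 0.54 log2 units at 4°C against 24°C, beside -0.11 over all features. Apart from HSP22.0, the members of these last 2 lists carry no annotation in the files and are not named.

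The profile most like the mean centred log2 profile of the 5 genes in shoots was that of Solyc01g108430 (Pearson r = 0.957 over 18 libraries, and 0.851 over the 15 without 24°C after 3 h), followed by Solyc12g044740 (r = 0.952). In roots it was that of Solyc09g074310 (r = 0.933 over 9 libraries), followed by Solyc02g079860 (r = 0.896). These genes carry no name in the files. The mean profile was not scaled by gene, so ACD32.1, with the widest range in shoots, weighed most in the shoot profile. The named genes were the highest of all tested features in the same libraries, so high r values arise from the selection itself and were not tested. Among the 5 genes themselves, the strongest correlation in shoots was that of -0.74 between ACD32.1 and Solyc08g062340. In roots, Solyc06g076560 and Solyc06g076570 had a correlation of -0.70 and ACD32.1 and Solyc06g076560 one of 0.70 over 9 libraries. Over the 6 root libraries without those at 24°C after 3 h, these correlations were -0.60 and 0.41. All points share their organ's normalisation, and libraries of a group share their treatment.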

How the data were processed

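Reads were mapped by the authors with BBMap at default settings to the tomato genome (ITAG 3.2 gene models) with the organelle genomes, counted with featureCounts of the Subread package and normalised with edgeR by TMM. The deposited values are a normalised signal, neither whole counts nor log values, and shoots and roots were normalised apart. Whole reads could not be recovered, so no depth or counting interval is given here. The strand and multi-mapping options of the counting step are not given in the sources used here. The 27 libraries (18 shoot, 9 root) were grouped from the labels, with 0 sample columns unused. The sequencing batch of shoot libraries came from the study's supplementary information.

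Tested features reached 10 in 3 or more libraries. Log2 of the value plus 1 was fitted with limma 3.58.1 (R 4.3.3) with a mean-variance trend. Fold changes on this scale understate those of low genes. The shoot fit had 6 groups (T0 of each batch apart, averaged for T0 contrasts) and the root fit 3. Benjamini-Hochberg adjustment ran over the whole table of an organ. The labels call the samples replicates. By the study's account each is a biological replicate that pools several seedlings, so p-values measure the spread between such pools. The script was tested on simulated data, with changes placed only in features of higher mean level. ACD32.1, Solyc08g062340 and HSP22.0 in both organs, and HSP21 and HSFA4C in shoots, lay below that level, so the simulation does not cover them.

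The text names all listed genes, HSFA2, and the genes most correlated with the listed genes' mean profile, with IDs without annotation limited to 2 per organ. From the other lists it allowed up to 4 genes with the highest mean, which were left as counts because several carry no annotation. HSFA4C and HSP22.0 were added after their values were seen. The genes, lists and tests were chosen with earlier results of these data known. Alternatives covered the pseudocount, the filter on low values, scaling, robust moderation, the T0 libraries used, a replicate block, the libraries fitted, an adjusted p under 0.05 and leaving out each library. The reference table used holds another assembly (SLM_r2.1) and served only to tell organelle genes from nuclear ones. No sequences, promoter motifs or per-length levels were used here.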

Additional observations from a re-analysis of the deposited data

Results flagged for a closer look

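The difference of ACD32.1 (Solyc07g055720) between 4°C and 24°C in shoots changed between the times, by -5.64 log2 units from 30 min to 3 h (limma adjusted p = 0.000753), and this test of the difference itself drew attention to the gene. The means were 15.3 normalised counts at 4°C and 1016 at 24°C at 3 h, and 7.86 at 4°C and 8.41 at 24°C at 30 min. HSFA2 (Solyc08g062960) was the only gene outside the list that was checked in this way. Its change was -3.42 log2 units (limma adjusted p = 0.000146). Of the 20 tested HSF genes, 4 were called lower, HSFA2 among them, and 1 higher for this change. Of all 20535 features, 1588 were called lower and 822 higher. The times were sequenced in different batches, so time and batch cannot be told apart in this test, although each difference between 4°C and 24°C lies within a batch.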

How the results depend on the processing

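Replicate numbers did not pair the libraries (correlations of same-numbered deviations 0.00 to 0.13 in shoots at 30 min, -0.02 to 0.00 in shoots at 3 h and -0.01 to 0.02 in roots). A replicate block changed the number of members called in 1 comparison, roots at 4°C against T0 (0 in place of 1, Solyc06g076570, adjusted p = 0.0149); the fit of only the libraries compared also gave 0, and leaving out 1 library gave 0 to 1. In roots at 24°C against T0, 1 of the members was called in place of 0 at an adjusted p under 0.05 and with either rescaling. At that threshold 2 members were called in place of 1 in roots between 4°C and 24°C and in the change between times in shoots, and 1 in place of 0 between T0 batches. Leaving out 1 library gave 1 to 2 members for the change between times and 0 to 1 for the T0 batches. The number of members called did not move by more than 1.5 times in the other 6 comparisons. Among these, leaving out 1 library gave 2 to 3 members in shoots at 24°C after 3 h against T0. Between 4°C and 24°C at 3 h in shoots it always gave 2, but not always the same 2. Without the third 24°C library, Solyc06g076570 was lost (limma adjusted p = 0.0105) and Solyc08g062340 was gained (0.00816). Of 1843 recomputed differences of single genes, 45 changed sign, all in differences that were not called, 18 lost a call and 8 gained one. The filter at 50 removed ACD32.1 and Solyc07g040680 in roots, and Solyc08g062340, HSP21 and HSP22.0, from the tested features. Promoter motifs and a family search by protein sequence were not run.

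Sign changes of Solyc03g082420 were found in shoots against T0: -0.18 at 24°C after 3 h and 0.23 at 4°C after 30 min with T0 of the same batch, and, at 4°C after 3 h, 0.0039 with a pseudocount of 0.5, 0.089 after rescaling on all features and 0.092 on nuclear genes, and -0.35 to 0.20 leaving out 1 library. For Solyc06g076560 rescaling on all features and on nuclear genes gave -0.144 and -0.146 at 24°C after 3 h against T0 and 0.021 and 0.023 for the change between times, and leaving out 1 library gave -0.038 to 0.094 in the first of these and -0.184 to 0.026 in roots at 4°C against T0. For Solyc06g076570 they gave 0.054 and 0.056 between T0 batches, and leaving out 1 library gave -0.181 to 0.043 there and -0.15 to 0.17 at 30 min between 4°C and 24°C. For ACD32.1 (Solyc07g055720) a pseudocount of 10 gave 0.032 at 4°C after 30 min against T0. Leaving out 1 library gave -0.66 to 0.86 there, -0.064 to 0.806 at 24°C after 30 min against T0, -0.95 to 0.57 at 30 min between 4°C and 24°C, -0.21 to 1.01 between T0 batches and -0.16 to 0.10 in roots at 4°C against T0. For Solyc08g062340 it gave -0.043 to 0.507 in roots between 4°C and 24°C, -0.32 to 0.23 in roots at 4°C against T0, -0.59 to 0.0080 in shoots at 4°C after 3 h against T0, -0.077 to 0.348 in shoots at 24°C after 30 min against T0 and -0.803 to 0.046 between T0 batches. For Solyc07g040680 it gave -0.21 to 0.29 in shoots at 3 h and for Solyc09g059520 -0.059 to 0.126 in roots, both between 4°C and 24°C. The causes were not tested.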
